A study of Mus musculus with 3 samples.

Results

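TFAP2A binding was described at 6 mouse genes whose products move ions or solutes in melanocytes, namely Oca2, Slc45a2, Slc24a4, Slc24a5, Trpm1 and Tpcn2. A TFAP2A peak was assigned to a gene when its summit, the position of highest signal, lay in the gene body or within 100 kb of it on build mm9. This rule gave 42 of the 18528 peaks of replicate 1 and 49 of the 21459 peaks of replicate 2, and 0 peaks fell in the windows of more than 1 gene. The cells were melan-a, an immortalized line of melanocytes from normal embryonic mouse skin with the genotype Cdkn2a tm1RDp/tm1RDp, so both alleles of this cell cycle inhibitor locus were mutant in all samples. Chromatin was precipitated with the AP-2alpha antibody 3B5 in 2 independent experiments, replicates 1 and 2, and 1 input sample without antibody came from the same line. No treatment was given beyond the culture medium, which held 200 nM of the phorbol ester 12-O-tetradecanoylphorbol 13-acetate and 200 pM cholera toxin. The values describe 1 cell line under these conditions. The identity of the cells could not be checked, because peak lists hold no expression values. The deposited lists give no read counts, so the depth behind each peak was unknown, and precision is given by the spread between replicates or by exact Clopper-Pearson intervals of 95% that cover counting error over peaks only.

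TFAP2A is a transcription factor of the AP-2 family that binds DNA as a dimer at GC-rich palindromes, and it acts in the neural crest cells from which melanocytes arise. Melanin is made in melanosomes, lysosome-related organelles whose pH and ion content set the activity of the pigment enzyme tyrosinase. Oca2 encodes an anion channel protein and Slc45a2 a sugar and proton transporter of the melanosome, and loss of either causes oculocutaneous albinism. Slc24a5 and Slc24a4 encode potassium-dependent sodium-calcium exchangers, and both genes carry variants linked to pigmentation. Trpm1 encodes a cation channel and is a classical target of the melanocyte factor MITF, whereas Tpcn2 encodes a cation channel of endolysosomes and melanosomes.

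The DNA under the summits is shown first for the peaks on which the promoter and distal comparison turns. Each sequence is the + strand of mm9 and spans 101 bp centred on a summit. Capitals mark matches to the TFAP2 core GCCNNNGG, read on both strands (as CCNNNGGC on the other), and 2 such matches overlap where the palindrome is complete (GCCNNNGGC). The summits are those of replicate 1. The first pair lies in the genes' own promoters, defined here as the stretch from 5 kb before to 1 kb after any transcription start site (TSS) of the gene.
Slc45a2 promoter, chr15:10930297-10930397: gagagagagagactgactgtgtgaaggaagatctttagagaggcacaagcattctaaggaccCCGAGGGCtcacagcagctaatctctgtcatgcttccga
Oca2 promoter, chr7:63495516-63495616: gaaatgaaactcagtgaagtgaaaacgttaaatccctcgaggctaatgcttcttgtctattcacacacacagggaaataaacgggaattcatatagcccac
The next set holds, for each gene with a peak in both replicates, the distal peak of highest mean enrichment.
Oca2 downstream of the gene, chr7:63798973-63799073: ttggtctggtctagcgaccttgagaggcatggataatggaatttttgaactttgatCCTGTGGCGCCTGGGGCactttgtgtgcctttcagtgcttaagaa
Slc45a2 intron, chr15:10933008-10933108: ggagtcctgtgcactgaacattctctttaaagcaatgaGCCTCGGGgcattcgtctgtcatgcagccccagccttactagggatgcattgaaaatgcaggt
Slc24a4 side of Rin3, chr12:103519255-103519355: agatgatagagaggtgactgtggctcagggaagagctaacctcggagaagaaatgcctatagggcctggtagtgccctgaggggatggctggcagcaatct
Trpm1 side, Mtmr10 intron, chr7:71466703-71466803: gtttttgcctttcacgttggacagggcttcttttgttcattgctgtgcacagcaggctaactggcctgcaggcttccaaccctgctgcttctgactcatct
Tpcn2 downstream of the gene, chr7:152408286-152408386: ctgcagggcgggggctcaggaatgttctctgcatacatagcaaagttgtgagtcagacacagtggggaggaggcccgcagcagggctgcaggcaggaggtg
The last set holds the distal peaks nearest to the start of the 3 genes that had shared peaks but none in their promoter, chosen after their values were seen.
Slc24a4 upstream, chr12:103299630-103299730: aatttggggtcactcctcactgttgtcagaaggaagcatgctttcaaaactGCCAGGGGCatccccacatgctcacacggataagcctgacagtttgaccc
Trpm1 intron, chr7:71364647-71364747: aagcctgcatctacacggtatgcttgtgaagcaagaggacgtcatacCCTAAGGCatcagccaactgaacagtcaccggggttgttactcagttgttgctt
Tpcn2 upstream, chr7:152475018-152475118: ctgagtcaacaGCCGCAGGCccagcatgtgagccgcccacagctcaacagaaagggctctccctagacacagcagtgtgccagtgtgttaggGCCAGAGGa
Of the 2 promoter summits, the one at Slc45a2 held the core and the one at Oca2 did not. The strongest distal summits of Oca2 and Slc45a2 held it, whereas those beside Slc24a4, Trpm1 and Tpcn2 did not. Only the form with 3 bases between GCC and GG was searched. A summit without this core was therefore not shown to lack similar letters with another spacing.

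Only Oca2 and Slc45a2 had a promoter peak that was found in both replicates. This was 2 of 6 genes, beside 17% of the 22361 other protein-coding genes. In the replicate 1 list alone the same 2 of 6 genes had a promoter peak (18.6% of other genes). In the replicate 2 list alone 4 of 6 did (20.9% of other genes), since Slc24a4 and Trpm1 were added by weak peaks. A peak of both replicates anywhere within 100 kb was present for 5 of 6 genes, all but Slc24a5, beside 71.7% of other genes. With 6 genes, these shares were read only beside the background and were not tested.

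**Figure D1:**
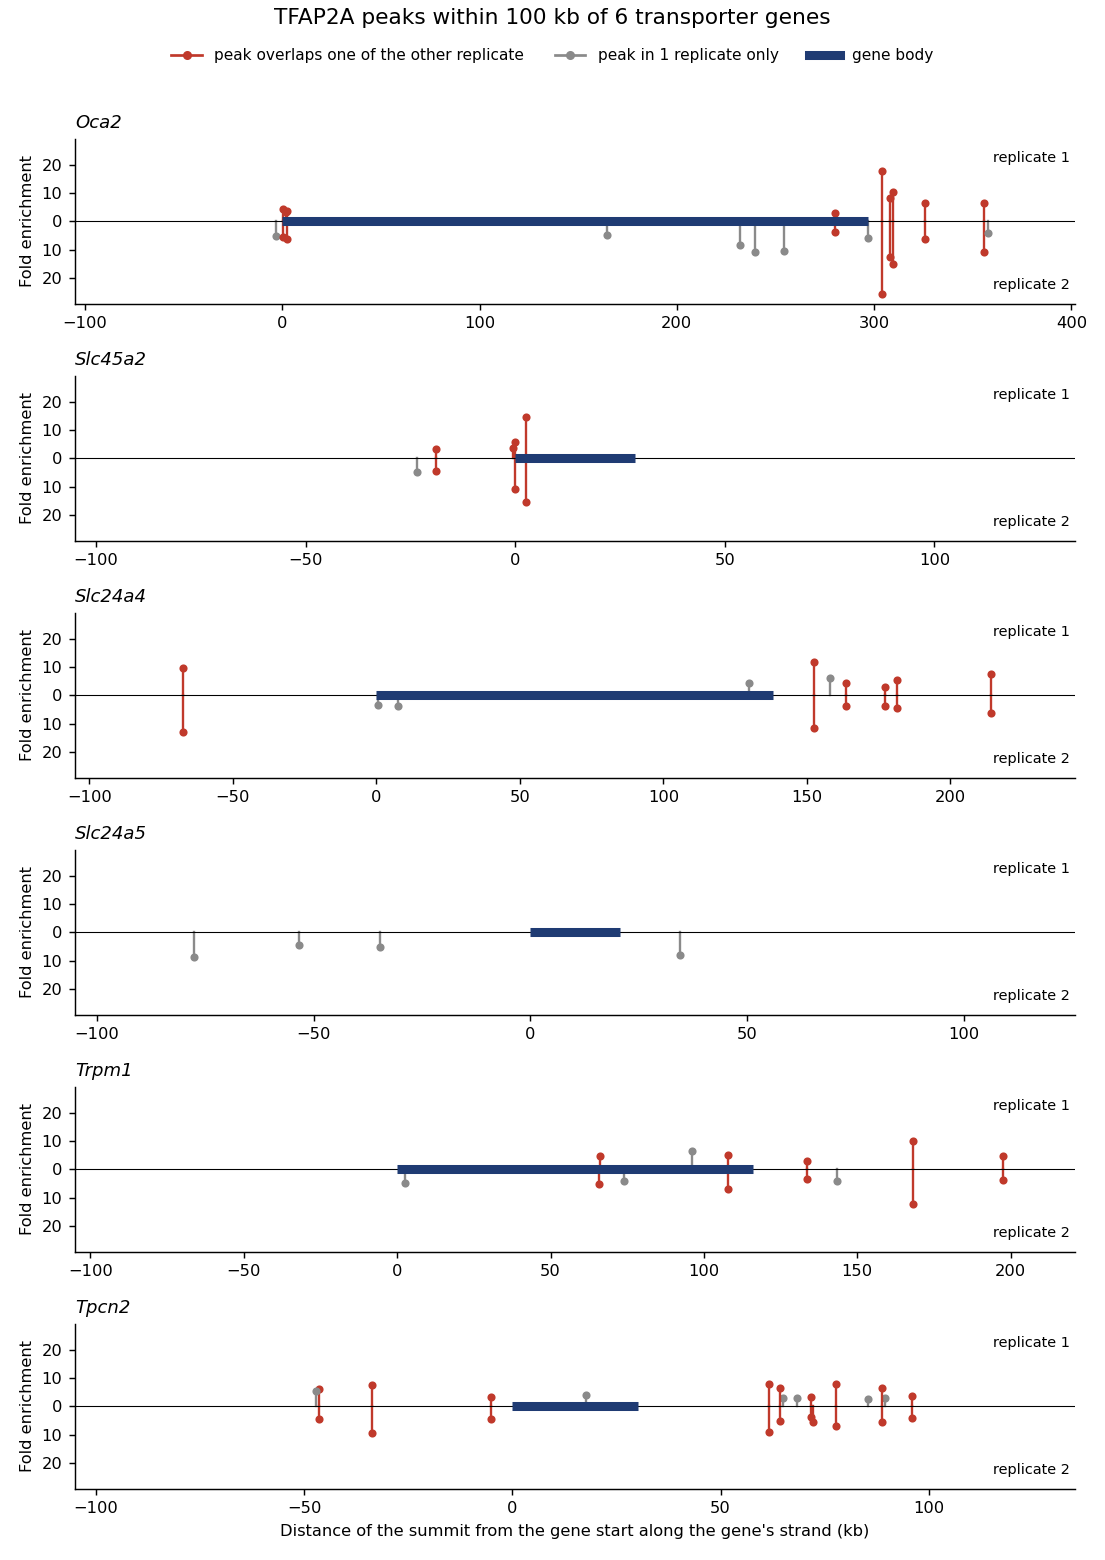
Fold enrichment of every TFAP2A peak against the distance of its summit from the gene start, in kb along the gene's strand, with replicate 1 drawn upward and replicate 2 downward and 1 panel per gene. Red stems overlap a peak of the other replicate and gray stems do not. The tallest stems stand past the 3′ end of Oca2, at 17.9 and 25.4, and all 4 stems at Slc24a5 are gray.

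Slc45a2 (ENSMUSG00000022243.8, chr15:10930476-10958988, + strand) had its highest TFAP2A enrichment in the first part of the gene and a second peak at its TSS. The promoter summit lay 129 bp upstream of the TSS in replicate 1 and 117 bp upstream in replicate 2. Fold enrichment over background, as the peak caller gave it, was 5.92 and 10.8 in replicates 1 and 2, respectively (mean 8.34 ± 3.42, SD, n = 2). By ratio, at 1.82, this pair differed most between replicates among the pairs at the 6 genes. Replicate 1 had another peak 628 bp upstream of the TSS, with an enrichment of 3.74 and no TFAP2 core. Both replicate 1 peaks were overlapped by 1 replicate 2 peak of 937 bp, and their own widths were 348 and 317 bp. The intronic summit 2582 bp downstream of the TSS (chr15:10932665-10933432) had an enrichment of 14.6 and 15.4 (mean 15.0 ± 0.594, SD, n = 2). This value exceeded 93.7% of all replicate 1 peaks and 95.2% of all replicate 2 peaks. In both replicates this intronic peak was higher than the promoter peak.

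The remaining peaks of the Slc45a2 window lay upstream, on the side of Amacr, which encodes an enzyme of branched-chain fatty acid breakdown. A peak in a coding exon of Amacr, 160 bp from the nearest TSS of that gene and 18805 bp upstream of Slc45a2, had an enrichment of 3.46 and 4.31. A peak of replicate 2 alone, 23373 bp upstream, had an enrichment of 4.91. No peak summit of either replicate lay more than 2591 bp into the window downstream of the Slc45a2 TSS.

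Oca2 (ENSMUSG00000030450.5, chr7:63495130-63791887, + strand) carried modest peaks at its start and, past its 3′ end, the peak of highest enrichment of all 6 windows. The promoter peak (chr7:63495305-63495755) lay in an intron, 436 bp downstream of the gene start in replicate 1 and 387 bp in replicate 2. Its enrichment was 4.21 and 5.61, a mean of 4.91 ± 0.992 (SD, n = 2). A neighboring intronic peak 2242 bp downstream of the start had an enrichment of 3.60 and 6.19, a mean of 4.90 ± 1.83. Its replicate 2 peak also overlapped another replicate 1 peak, 1837 bp from the start, with an enrichment of 3.39 and 1 TFAP2 core. Replicate 2 alone had a further promoter peak 3165 bp upstream of the start, with an enrichment of 5.20, and its summit region held 1 TFAP2 core. Deeper in the gene, a shared intronic peak 280140 bp from the start had an enrichment of 3.04 and 3.86.

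Beyond the 3′ end of Oca2, 5 peaks were found in both replicates and all were intergenic. The highest (chr7:63798503-63799422) lay 7136 bp past the gene end and had an enrichment of 17.9 and 25.4 in replicates 1 and 2 (mean 21.7 ± 5.32, SD, n = 2). By enrichment it exceeded 96.4% and 99.2% of all peaks of the respective list. By -log10 p, at 67.8 and 103, it exceeded 85.2% and 95.6%. In both replicates its -log10 p was below that of the Slc45a2 intronic peak, at 129 and 140. A peak 11231 bp past the end reached 8.33 and 12.6 (10.4 ± 3.00), and a peak 12812 bp past the end reached 10.4 and 14.9 (12.7 ± 3.18). These 3 peaks formed a group, and in either replicate each was higher in enrichment than the Oca2 peaks at the gene start. Peaks at 29055 and 59069 bp past the end had means of 6.32 ± 0.0633 and 8.63 ± 3.06. The TSS nearest to all 5 summits was that of an Oca2 transcript, at distances of 237415 to 289348 bp, and which gene these regions serve was not measured.

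Replicate 2 had 7 further peaks in the Oca2 window, whereas replicate 1 had 0 peaks of its own there. Of these, 4 lay in Oca2 introns, and those at 232065, 239611 and 254443 bp from the gene start had an enrichment of 8.26, 10.7 and 10.5. Peaks of that height were rarely restricted to 1 list, as 95.7% of all replicate 2 peaks with an enrichment of at least 8 overlapped a replicate 1 peak. At the 6 genes 16 replicate 2 peaks reached this enrichment and 5 of them had no replicate 1 partner, 3 at Oca2 and 2 at Slc24a5. The -log10 p of these 3 Oca2 peaks was 20.2, 32.4 and 31.6, which exceeded 46.2%, 66.6% and 65.8% of all replicate 2 peaks. By this measure the 2 at Slc24a5 exceeded 66.9% and 49.9%. The share of 95.7% was matched on enrichment and not on -log10 p, so it can overstate how unusual these peaks were. The limit of 8 lay just below the lowest of the 5 values, 8.07. Enrichment of the paired peaks at Oca2 was also higher in replicate 2 for 7 of 8 pairs, with a median ratio of 1.43. All 7 exceeded the upper quartile of the ratio over all pairs, 1.24.

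Slc24a4 (ENSMUSG00000041771.6, chr12:103366943-103505301, + strand) had no shared peak in its promoter or gene body, and its shared peaks lay on both sides of the gene. Within the gene, replicate 1 alone had an intronic peak of 4.48 and replicate 2 alone an intronic peak of 3.79. An intergenic peak 67263 bp upstream (chr12:103299483-103300331) had an enrichment of 9.65 and 12.8, a mean of 11.2 ± 2.23 (SD, n = 2). A peak 14004 bp past the gene end (chr12:103518916-103519540) had an enrichment of 11.9 and 11.5, a mean of 11.7 ± 0.260. The order of these 2 peaks was opposite in the replicates. The second lay 1953 bp upstream of a TSS of Rin3, which encodes a regulator of the endosomal GTPase Rab5, and was therefore also in the promoter of that gene. The other 4 shared peaks lay in Rin3 introns, with means of 3.33 to 7.02. The promoter peak of Slc24a4 in replicate 2 alone (chr12:103367469-103367719) had its summit in a coding exon, 57 bp from the start of transcript Slc24a4-003 and 715 bp from the gene start. Its enrichment was 3.27, which exceeded 6.94% of replicate 2 peaks.

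At Slc24a5 (ENSMUSG00000035183.8, chr2:124893860-124914413, + strand) no peak was found in replicate 1. Replicate 2 had 4 peaks, at 77555, 53260 and 34719 bp upstream of the gene start and 34514 bp downstream of it, with an enrichment of 8.55, 4.60, 5.23 and 8.07. The last lay in an intron of the neighboring gene Myef2. None of the 4 had its summit in the promoter or body of Slc24a5. The strongest held no TFAP2 core within 50 bp of its summit, as its sequence shows.
Slc24a5 upstream, replicate 2, chr2:124816255-124816355: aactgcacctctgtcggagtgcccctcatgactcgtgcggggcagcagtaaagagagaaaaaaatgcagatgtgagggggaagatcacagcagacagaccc

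Trpm1 (ENSMUSG00000030523.10, chr7:71298721-71414643, + strand) has 17 annotated start sites, and none had a peak of both replicates in its promoter window. The paper, by contrast, reports TFAP2A binding close to the TRPM1 promoter in mouse as well as human melanocytes. Under the rules used here, the summit closest to the gene start lay 2552 bp downstream of it, in replicate 2 alone. Within the gene, 2 intronic peaks were shared. The first (chr7:71364430-71364913), 65976 bp from the gene start, had an enrichment of 4.55 and 5.12, a mean of 4.84 ± 0.403 (SD, n = 2), and lay 2174 bp from the nearest annotated start, that of Trpm1-011. The second, 107738 bp from the start, had an enrichment of 5.07 and 6.94 (6.0 ± 1.33). The highest peak of the window (chr7:71466388-71467153) lay in an intron of Mtmr10, 52110 bp past the gene end, with 9.89 and 12.1 (11.0 ± 1.59). It was higher in both replicates than every peak inside Trpm1. Weaker shared peaks lay 88 bp upstream of a Mtmr10 TSS (3.13 ± 0.113) and in an intron of Fan1, which encodes a DNA repair nuclease (4.35 ± 0.702).

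A group of 6 coding starts of Trpm1 lies 31715 to 31766 bp from the gene start. The nearest summit was 34210 bp or more away in replicate 1 and 28994 bp or more away in replicate 2 from the starts between 31546 and 31766 bp. Replicate 1 alone had an intronic peak 96187 bp from the gene start, with an enrichment of 6.32, the highest of that replicate inside Trpm1. Replicate 2 alone had peaks 2552 bp from the gene start (enrichment 4.94) and 859 bp from the start of Trpm1-015, a processed transcript (enrichment 4.0). The latter met the promoter rule. Its summit region held no TFAP2 core but 2 matches to TCATGTG, the M-box form of the site of MITF and related factors, read on both strands and shown in capitals.
Trpm1 internal promoter, replicate 2, chr7:71372643-71372743: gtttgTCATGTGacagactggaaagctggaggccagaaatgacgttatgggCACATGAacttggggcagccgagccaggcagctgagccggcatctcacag
By comparison, 3.54% of all peaks of replicate 2 only held this site within 50 bp of the summit.

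Tpcn2 (ENSMUSG00000048677.7, chr7:152439828-152469916, - strand) had no promoter peak but the densest shared binding of the 6 windows. It had 15 peaks in replicate 1 and 10 in replicate 2, and all 9 shared pairs lay outside the gene. Per Mb of window this was 39.1 shared replicate 1 peaks, and 2.62% of other protein-coding genes had a window as dense. The remaining genes with shared peaks had 15.8 to 18.1 per Mb, and a median gene had 8.16. The peak closest to the promoter window (chr7:152474848-152475159) lay 5152 bp upstream of the gene start in replicate 1 and 5125 bp in replicate 2, just outside the limit of 5 kb. Its enrichment was 3.27 and 4.45, a mean of 3.86 ± 0.834 (SD, n = 2). Farther upstream a peak in an intron of Mrgprd, a receptor gene of sensory neurons, had 7.62 and 9.27 (8.45 ± 1.16).

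Downstream of Tpcn2, 6 shared peaks lay between 31492 and 65860 bp past the gene end. The highest (chr7:152407935-152408680) had an enrichment of 8.03 and 8.90, a mean of 8.47 ± 0.609, and the others had means of 3.90 to 7.38. Replicate 1 had 6 peaks of its own, with an enrichment of 2.51 to 5.27, of which 1 lay in a Tpcn2 intron (3.97). Replicate 2 had 0 of its own, the reverse of Oca2 and Slc24a5. The largest distance between paired summits, 480 bp, was also at Tpcn2, where a replicate 1 peak of 850 bp overlapped 2 peaks of replicate 2.

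In the Tpcn2 window 3 peaks stood out by their -log10 p rather than by their enrichment. No input values were analysed here, so the local background at Tpcn2 was not measured, and its part in these values and in the number of peaks was not tested. The 3 peaks at 77644, 61580 and -33720 bp from the gene start had a -log10 p of 127, 105 and 92.6 in replicate 1 and 95.9, 90.01 and 101 in replicate 2. In each replicate these 3 exceeded 90% of all peaks by -log10 p, whereas the highest enrichment at Tpcn2 exceeded 74.4% and 80.5% of peaks. Relative to the 200 peaks nearest in enrichment, the -log10 p of Tpcn2 peaks had a median ratio of 1.31 (0.771 to 3.24) in replicate 1 and 1.61 (0.774 to 3.78) in replicate 2, so some of them were below like peaks. The median was similar at Slc45a2 (1.3 and 1.51) and Slc24a4 (1.24 and 1.20), where the highest ratios were 1.85 and 1.98. It was 1.17 and 0.889 at Trpm1, 0.824 and 0.813 at Oca2, and 0.783 in replicate 2 at Slc24a5.

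**Figure D2:**
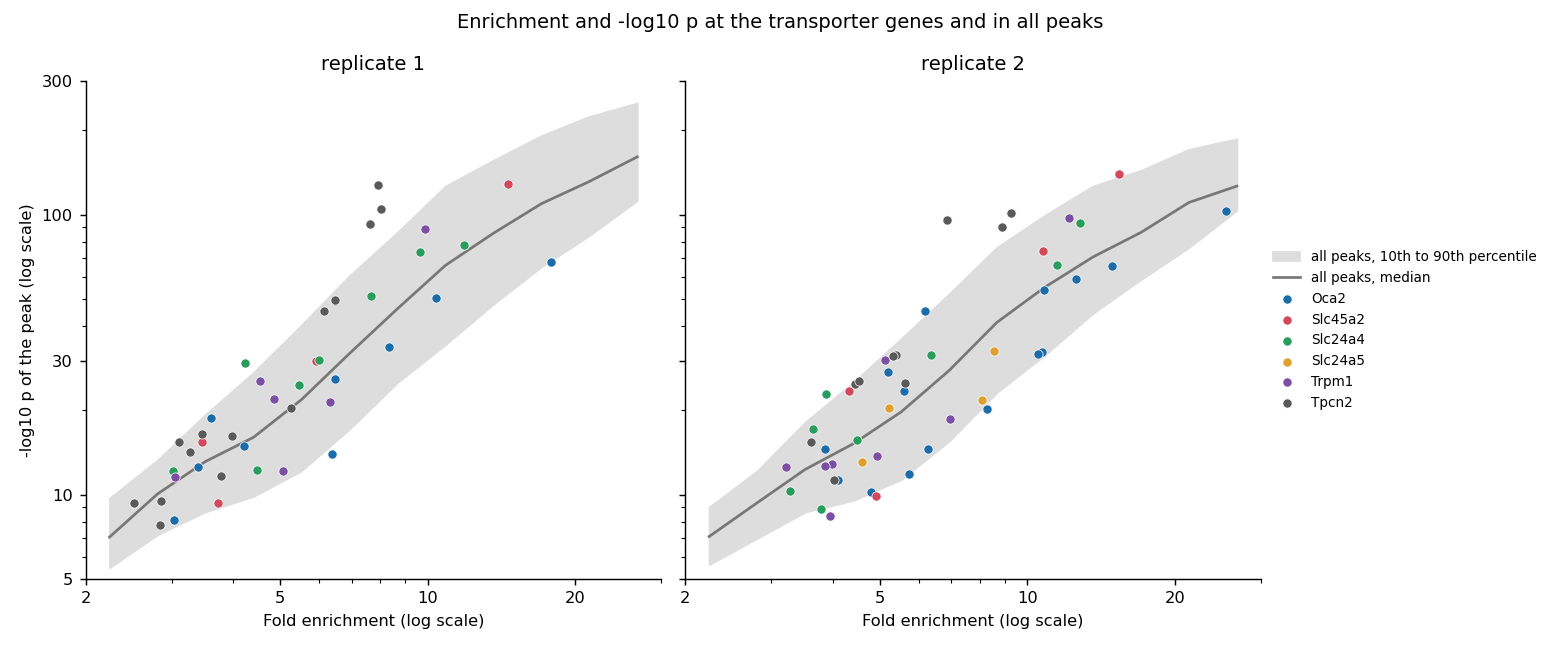
The -log10 p of each peak (vertical, log scale) against its fold enrichment (horizontal, log scale) in replicates 1 and 2, with points for the peaks of the 6 genes, a line for the median of all peaks and a band from the 10th to the 90th percentile. In both panels 3 Tpcn2 points lie above the band at a -log10 p of 90.01 to 127, and Oca2 points lie mostly below the line.

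Promoter and distal binding were then compared over all 31 pairs of peaks in which each was the other's largest overlap. Only 2 pairs had their summit in the gene's own promoter, with means of 4.91 (Oca2) and 8.34 (Slc45a2). The 5 pairs in gene bodies had a median of 4.90 (3.45 to 15.0), the 3 in promoters of other genes 3.89 (3.13 to 11.7) and the 21 elsewhere 6.32 (3.33 to 21.7). A mean above 10 was found for 7 of 31 pairs, beside 19.5% of all pairs, and these 7 were among the 29 distal pairs, 1 of them in the promoter of Rin3. The median was 6.63 over promoter pairs and 5.93 over the 29 distal pairs, a ratio of 1.12. The replicates ordered these classes differently, since the promoter median was 5.07 against a distal median of 6.36 in replicate 1, and 8.18 against 6.19 in replicate 2. The difference was thus smaller than the spread between replicates, and the ratio fell below 1, to 0.799 and 0.944, when each list was taken alone with all its peaks. Over all 16069 pairs, the median was 5.23 in promoters of any gene and 6.67 elsewhere. Of all shared peaks 28.8% had their summit in a promoter of any gene.

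**Figure D3:**
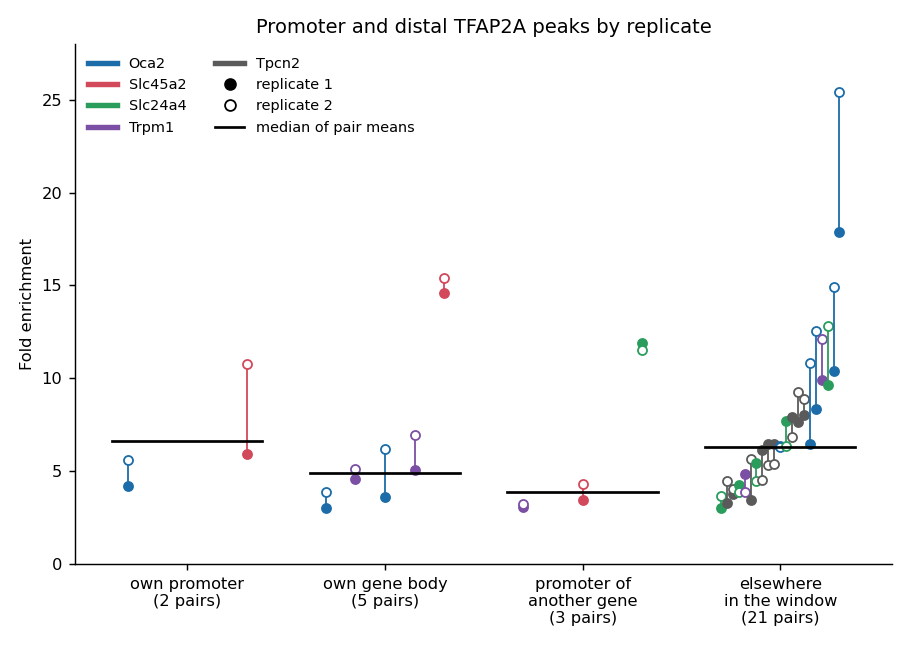
Fold enrichment of the 31 paired peaks, sorted by location, with filled circles for replicate 1, open circles for replicate 2, a color per gene and a bar at the median of pair means. The 2 promoter pairs, at 4.91 and 8.34, fall within the range of the distal pairs, which reach 21.7.

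Most peaks at the 6 genes were found in both replicates, and every pair of peaks lay within 2-fold in height. Of the replicate 1 peaks 33 of 42 were shared (78.6%, 63.2 to 89.7), beside 87.1% of all replicate 1 peaks. Of the replicate 2 peaks 32 of 49 were shared (65.3%, 50.4 to 78.3), beside 76% of all replicate 2 peaks. Both shares were below their background, which lay within the interval each time. Merging overlapping peaks gave 57 regions, with 31 in both replicates, 9 in replicate 1 only and 17 in replicate 2 only. Peaks of 1 replicate only had a median enrichment of 3.97 in replicate 1 and 4.94 in replicate 2, against 5.92 and 5.91 for shared peaks at these genes. All 3 own-promoter peaks of replicate 1 were shared, whereas 2 of 5 were in replicate 2. For distal peaks, 30 of 39 in replicate 1 and 30 of 44 in replicate 2 were shared.

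All 31 pairs differed by less than 2-fold, beside 98.4% of all pairs. Enrichment was higher in replicate 2 for 21 pairs (67.7%, 48.6 to 83.3), beside 57.8% of all pairs, and the median ratio was 1.20, beside 1.05. By gene the median ratio was 1.43 at Oca2, 1.25 at Slc45a2, 1.13 at Trpm1, 1.06 at Tpcn2 and 0.943 at Slc24a4. The paired summits lay a median of 23 bp apart, and 30 of 31 pairs lay within 100 bp, beside 94.7% of all pairs. Over all their peaks the 6 windows were slightly below the whole lists in enrichment, with medians of 5.17 and 5.39 against 5.56 and 5.75.

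**Figure D4:**
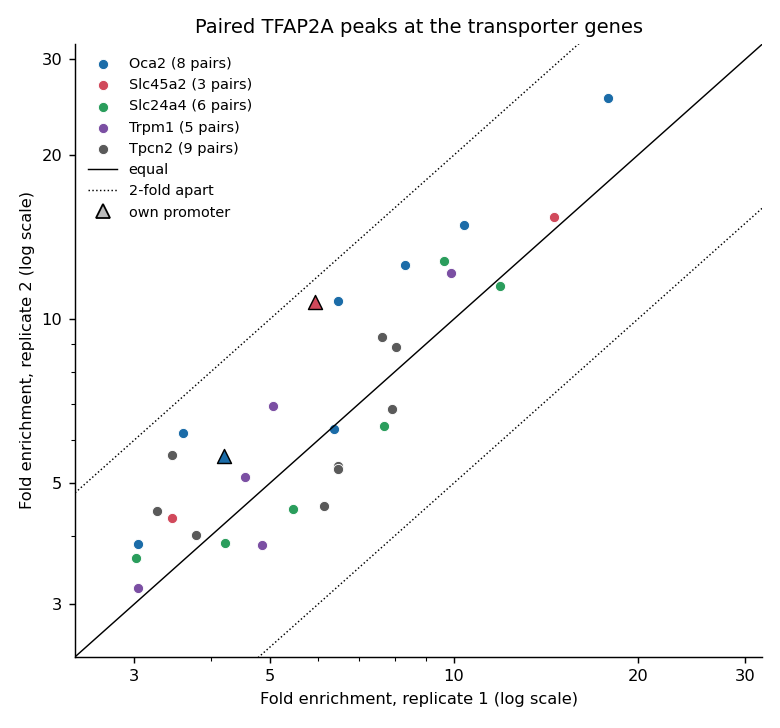
Fold enrichment of the 31 paired peaks in replicate 2 (vertical) against replicate 1 (horizontal), both on log scales, with a color per gene and triangles for own-promoter pairs. All points lie between the dotted lines of a 2-fold difference, and 7 of 8 Oca2 points lie above the line of equal values.

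The letters under the summits were then counted at all 33 shared replicate 1 peaks. Of these, 20 held a TFAP2 core no more than 50 bp from the summit (60.6%, 42.1 to 77.1), as did 57.1% of all 16099 shared peaks on the assembled chromosomes. In windows of the same length 400 bp to the left and right, 7 and 3 of the 33 held it, beside 15.3% in flanks of all shared peaks. By gene the count was 5 of 6 at Slc24a4, 3 of 4 at Slc45a2, 6 of 9 at Tpcn2, 4 of 9 at Oca2 and 2 of 5 at Trpm1. Peaks of 1 replicate only at the 6 genes held the TFAP2 core within 50 bp of the summit in 6 of 9 cases in replicate 1, beside 44.4% of all peaks of replicate 1 only, and in 9 of 17 cases in replicate 2, beside 52.9% of all peaks of replicate 2 only. The complete palindrome was found in 5 of 33 of the shared peaks, beside 19.1% of all shared peaks. The highest Oca2 peak held 3 matches, of which 2 overlap, and its sequence above places them next to each other on 1 side of the summit.

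Sites of other factors were few in the shared peaks. The M-box TCATGTG, the E-box CACGTG and the SOX sites ACAAAGG or ACAATGG were each present in 0 of 33, which allows a share of up to 9.09% (3 of 33, the limit taken here for a count of 0) or 10.6% by the exact interval. Their shares over all shared peaks, 2.01%, 1.78% and 5.21%, were below both limits, so a difference was not detectable with 33 peaks. At the summits of replicate 2 the E-box was present in 1 of 32 shared peaks, in a Rin3 intron, and the others in 0. The AP-1 site TGACTCA or TGAGTCA lay in 3 of 33, beside 6.36%. These were the Mtmr10 intron peak of the Trpm1 window, the highest Tpcn2 peak and the Tpcn2 peak 5152 bp upstream of the gene. The first and second of these held no TFAP2 core, and the AP-1 letters stand in their sequences above as tgactca and tgagtca. The TEAD site GGAATG lay in 2 of 33, beside 10.5%. Around the gene starts themselves, from 250 bp before to 50 bp after, a TFAP2 core was present in 4 of 6 genes (Slc45a2, Slc24a4, Slc24a5 and Trpm1), beside 58.2% of other protein-coding genes. Of these 4 genes, Slc45a2 alone had a shared promoter peak. Oca2 also had such a peak, and its count depended on the start chosen. The same window around the start of Oca2-004, 48 bp downstream of the gene start, held 1 core.

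Relatives of the 6 genes were counted by the same rules, from lists chosen with earlier results of these data known. Among 15 paralogs, 5 had a promoter peak of both replicates, beside 17% of other protein-coding genes, and 12 had one within 100 kb, beside 71.7%. They were Slc8b1 (annotated as Slc24a6), a mitochondrial sodium-calcium exchanger (6.25 ± 0.819), the taste cell channel Trpm5 (5.11 ± 0.732), Slc45a4 (4.88 ± 0.176), the calcium-activated channel Trpm4 (3.70 ± 0.173) and the cold receptor Trpm8 (3.11 ± 0.0979). Among 16 further transporters, channels and pump subunits of melanosomes, lysosomes or metal and cystine supply, 12 had a shared peak within 100 kb. A promoter peak of both replicates was present for 4 of the 16. These 4 were the endolysosomal channels Mcoln2 (10.4 ± 3.25) and Mcoln3 (4.15 ± 0.369), the iron transporter Slc11a2 (5.32 ± 0.323) and the proton pump subunit Atp6v0a1 (4.53 ± 0.446). Copper transporters Atp7a and Atp7b, the cystine transporter Slc7a11 and the chloride transporter Clcn7 had no promoter peak in either replicate. Of these, Atp7a, Slc7a11 and Clcn7 had shared peaks within 100 kb. Mfsd12, which encodes a cysteine transporter of melanosomes and is annotated as F630110N24Rik, had a promoter peak in replicate 2 only. Values are mean enrichment ± SD (n = 2).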

How the data were processed

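TFAP2A ChIP-seq was performed in melan-a cells fixed with 1% formaldehyde for 10 minutes, and the input sample has no table analysed here. The submitters' processing notes name BWA, MACS 1.4.2 and build mm9 without stating their roles. The authors deposited 1 peak list per replicate, called separately, with position, summit, fold enrichment (a ratio over background), -log10 p, -log10 q and a score for each peak. The deposited score was checked against 10 times the deposited -log10 p, cut to a whole number, with which it was identical for all peaks, and was not used. The deposited -log10 p started at 5.05 (replicate 1) and 5.06 (replicate 2), and regions below were not in the lists. Depth was unknown. Enrichment values belong to the authors' peak caller and were neither rescaled nor transformed.

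Genes and TSSs came from GENCODE mouse version 1 (Ensembl release 65, mm9). An overlap of 1 bp or more made a peak shared, as in the study's methods, and pairs were mutual largest overlaps. Motifs were searched on both strands. Peaks on unplaced contigs or the mitochondrial genome (38 and 42) were left out of location and motif counts. All results are descriptions of 2 libraries, and no test was made because peaks and genes are not replicates. The members and the related lists were chosen with earlier results of these data known. All 6 genes, each own-promoter peak, the distal shared peak of highest mean enrichment per gene and up to 5 related genes per list with a shared promoter peak were named by rule, and other peaks were named after their values were seen. Alternatives were a -log10 q of at least 5, a reciprocal overlap of 50%, summits within 100 bp, windows of 10 kb, promoters of 1 kb to each side, coding transcripts, each list alone, -log10 p as the measure of height, a longer motif and motif windows of 100 bp. Scripts were tested on simulated data and ran in Python 3.11.15 with numpy 2.4.6, pandas 2.3.3, pysam 0.24.0 and matplotlib 3.10.9.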

Additional observations from a re-analysis of the deposited data

How the results depend on the processing

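The promoter and distal comparison did not keep its direction. The ratio of 1.12 became 0.818 with a reciprocal overlap of at least 50%, and 0.799 and 0.944 when either replicate was used without the other, while it stayed above 1 with summits within 100 bp, windows of 10 kb, narrower promoters, coding transcripts and -log10 p as the height. The count of 2 genes with a shared promoter peak fell to 1 (Oca2) with reciprocal overlap, because the Slc45a2 peak of replicate 2 was much wider than its partners, and ranged from 2 to 4 with 1 replicate left out. The shared percentage of 78.6 became 66.7 with reciprocal overlap and 65.3 when counted from replicate 2. The median ratio of 1.20 became 1.12 with reciprocal overlap, 1.13 with summits within 100 bp, 1.36 with windows of 10 kb and 1.10 with -log10 p as the height. The 60.6% of shared peaks with a TFAP2 core became 54.5% with windows of 10 kb, 15.2% with the palindrome GCCNNNGGC and 75.8% within 100 bp of the summit, and was 61.9% and 63.3% with 1 replicate left out. A -log10 q of at least 5 removed no peak at the 6 genes, where the lowest value was 5.19, and so left the values there unchanged. The whole lists started at a -log10 q of 2.64, and the background shares are not given for this limit. Unknown depth limits the reading of peaks found in 1 replicate only. No paired analysis was possible because only 1 group had peak lists and no result came from a test.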

Other observations

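Of the 6 peaks of replicate 1 only that held a TFAP2 core, 4 were at Tpcn2 and 2 at Slc24a4. In replicate 2 the core lay in 3 of 7 such peaks at Oca2 and 2 of 4 at Slc24a5. An M-box was found in 1 of 9 peaks of replicate 1 only and 2 of 17 of replicate 2 only, beside 1.51% and 3.54% of all such peaks. With counts this small no difference is read from them. The peaks were an intronic Oca2 peak of replicate 2, 254443 bp from the gene start, and the Trpm1-015 peak of replicate 2, both without a TFAP2 core, and a Tpcn2 peak of replicate 1, 68282 bp from the gene start, with 3 TFAP2 matches.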
